A study of Mus musculus with 2 samples.

Results

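The genes described here are 10 microtubule-associated genes of the neonatal mouse brain, the structural proteins Map1a, Map1b, Map2, Mapt, Map4 and Map6, the doublecortin genes Dcx and Dclk1, and the end-binding genes Mapre1 and Mapre3. They were chosen by name, are 10 of the 45578 genes in the deposited table, and were all found there under 1 Ensembl identifier each. For each gene the values are those of the isoform with most counts in the 2 libraries together. The material was whole brain of control mice at postnatal day 5 (P5), with the genotype Smn+/-; SMN2tg/0 (heterozygous for the mouse Smn gene, with a human SMN2 transgene) on an FVB background. There was 1 group, with 2 replicates. The labels call these biological replicates, while the series text speaks of a single mouse, so a difference between the libraries may be technical. Ribosomes engaged in translation were captured with RiboLace beads, and their protected RNA fragments of 25 to 35 nucleotides were sequenced.

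Microtubules are hollow polymers of tubulin that carry transport along axons and dendrites and push out the growing neurite. Structural microtubule-associated proteins bind along the lattice and stabilise or space it. Doublecortin proteins bind between protofilaments and are needed for neurons to migrate in the developing cortex, and end-binding proteins track the growing plus end and recruit other proteins to it. Several of these genes make isoforms of very different size, and in rodent brain the balance of tau and MAP2 isoforms shifts during postnatal development.

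The libraries held 343552 and 120282 counts at the gene level, a 2.86-fold difference in depth, so that 1 count was worth 2.71 CPM (counts scaled by effective library size) in replicate 1 and 8.93 CPM in replicate 2. All 10 genes passed the filter of a mean of at least 10 counts. Levels are given below as coding density, in CPM per kilobase of coding sequence, to set genes of different length side by side. The counts are those of whole transcripts, so fragments in untranslated regions can be included. Per kilobase of whole transcript the order of the genes changed, as given below. Neuronal markers, with 1576 and 525 counts over 9 genes, and glial, erythroid and choroid plexus markers were all detected, as whole brain tissue would hold them. Of 5 genes of liver and skeletal muscle, Alb, Apoa1 and Ckm had no count in either library and Myh1 had 1 and 0, while the muscle actin Acta1, which is close in sequence to other actins, had 70 and 22. None of the markers that passed the count filter was called different between the libraries, beside 4.14% of all genes tested. Markers under the filter, among them most of those of microglia and endothelium, were not tested. Microglia and endothelium held the fewest counts among the cell types of the brain (65 and 20, and 54 and 23). In whole tissue, fewer cells of a type and less RNA per cell cannot be told apart, and without total RNA libraries neither can messenger level and ribosome occupancy.

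Together the 10 genes took 2641 gene counts in replicate 1, or 0.769% (Wilson, 0.740 to 0.798 at 95%), and 889 in replicate 2, or 0.739% (0.692 to 0.789), or 0.754% ± 0.021 (SD, n = 2). Map1b alone held 47.1% of the family's counts in replicate 1 (45.2 to 49.0) and 52.2% in replicate 2 (48.9 to 55.5). These shares take 1 isoform a gene, and Map1b is the only member with a single transcript. Per kilobase of coding sequence the order was Mapt, Map1b, Mapre1, Dcx, Map2, Dclk1, Mapre3, Map6, Map4 and Map1a, with a 12.3-fold range between the highest and the lowest. Neighbours whose ranges over the libraries overlapped were Mapre1 and Dcx, Map2 and Dclk1, and Map4 and Map1a. The ranges of the other neighbours did not overlap, but a range holds only the values of the 2 libraries, without counting error. In replicate 1 the exact 95% Poisson intervals of Mapre3 (72.8 to 148) and Map6 (78.3 to 118) overlapped. Those of Map6 and Map4 (62.4 to 94.1) did so too. Both pairs overlapped in replicate 2 as well. There the intervals of Dcx (191 to 386) and Map2 (149 to 218) also overlapped. So did those of Dclk1 (88.0 to 182) and Mapre3 (58.0 to 208). The median density of the 10 genes was 172, against 62.3 for all protein-coding genes tested. Of the 10, 9 lay above that median and Map1a lay just below it.

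**Figure D1:**
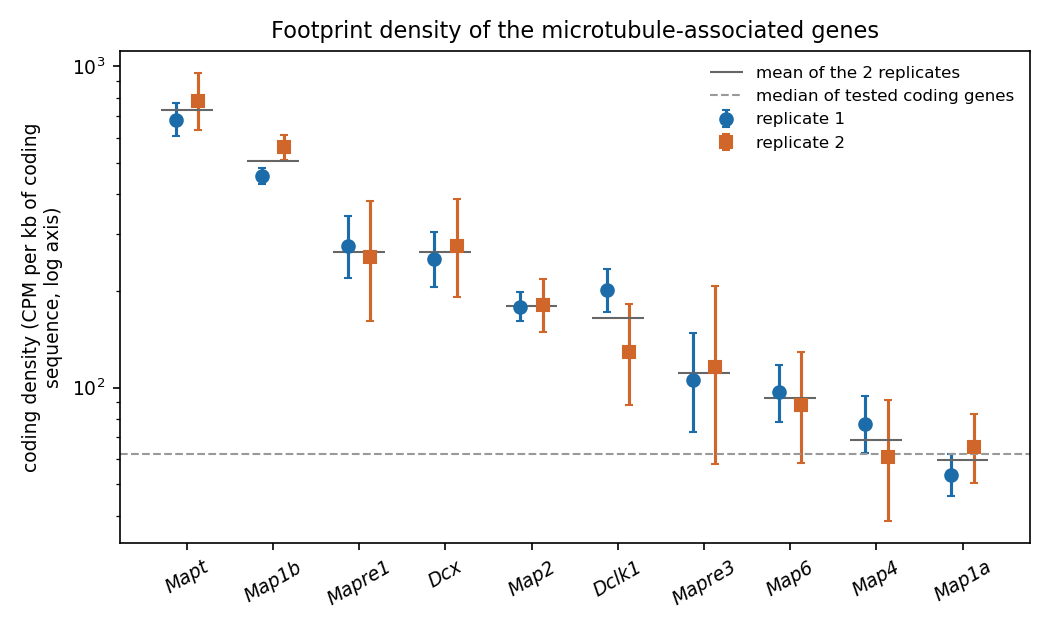
Coding density of the 10 genes in each library (CPM per kilobase of coding sequence, log axis), ordered by the mean of both libraries. Bars are exact 95% Poisson intervals, which cover counting error only; the dashed line is the median of the tested protein-coding genes at 62.3, and Mapt and Map1b stand above the other 8 genes in each library.

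Mapt encodes tau, the microtubule-associated protein of axons. Its transcript Mapt-001 (ENSMUSG00000018411, coding sequence 1119 nucleotides) had 282 counts in replicate 1 and 98 in replicate 2. This was a coding density of 683 (exact 95% Poisson interval 606 to 767) and 782 (635 to 953), or 732 ± 70.1 (SD, n = 2), higher than in 96.9% of the 4294 protein-coding genes ranked. Map2, the related protein of dendrites and cell bodies, had 362 and 111 counts on a coding sequence of 5487 nucleotides. Its density was 179 in replicate 1 (161 to 198) and 181 in replicate 2 (149 to 218). These levels differed little under TMM scaling, with a log2 ratio of 0.015, and by -0.19 with library totals. Map4, the member of the same family found in many cell types beside neurons, had 96 and 23 counts and a density of 77.1 and 60.9. Within this family Mapt exceeded Map2 by 3.82-fold in replicate 1 (exact 95% interval 3.26 to 4.48) and by 4.33-fold in replicate 2 (3.27 to 5.73). Map2 exceeded Map4 by 2.32-fold (1.85 to 2.94) and 2.97-fold (1.88 to 4.88). The order tau, MAP2, MAP4 therefore held in each library beyond the counting error of reads per coding length. Per kilobase of whole transcript, Mapt and Map2 were level, at 156 and 158 CPM.

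Map1b and Map1a encode large related proteins that are each cut into a heavy and a light chain; MAP1B is abundant in growing axons and MAP1A is known for rising as neurons mature. Map1b-201 (ENSMUSG00000052727), the only transcript of its gene in the table, had 1243 and 464 counts on a coding sequence of 7395 nucleotides. Its coding density was 456 in replicate 1 (exact 95% Poisson interval 431 to 482) and 560 in replicate 2 (510 to 614). By CPM, without regard to length, it stood at 3756 ± 548 (SD, n = 2), above 99.9% of protein-coding genes. Map1a, with the longest coding sequence among the representatives (9045 nucleotides), had 179 and 66 counts and a density of 53.6 and 65.2. Per coding length Map1b exceeded Map1a by 8.49-fold in replicate 1 (exact 95% interval 7.26 to 9.99) and by 8.60-fold in replicate 2 (6.63 to 11.3). Map1b was therefore near the top of the order and Map1a at its end, and the ratio between them differed little between the libraries. With isoforms summed, where fragments can recur, the mean densities were closer, at 256 for Map1b and 59.6 for Map1a. Mapt lay above Map1b by 1.499-fold (1.31 to 1.71) and 1.40-fold (1.11 to 1.74), a step that depended on the Mapt isoform chosen, as shown further on. Map6, which encodes a protein that stabilises microtubules against cold, had 97 and 27 counts and a density of 96.6 and 88.6.

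Dcx (doublecortin), which marks migrating and young neurons, had 102 and 34 counts on Dcx-002 (ENSMUSG00000031285, coding sequence 1098 nucleotides) and a coding density of 252 (exact 95% Poisson interval 205 to 306) and 277 (191 to 386). Dclk1, which joins a doublecortin part to a kinase, had 165 and 32 counts on Dclk1-001 (ENSMUSG00000027797, coding sequence 2220 nucleotides). Its density was 201 (172 to 235) in replicate 1 and 129 (88.0 to 182) in replicate 2, the widest gap between libraries in the family relative to its mean, 165 ± 51.4 (SD, n = 2). The ratio of Dcx to Dclk1 was 1.25 in replicate 1 (exact 95% interval 0.967 to 1.61), which includes no difference, and 2.15 in replicate 2 (1.29 to 3.60), which does not. Mapre1, which encodes the general end-binding protein EB1, had 82 and 23 counts and a density of 275 and 255. Its ratio to Dcx was 1.09 (0.808 to 1.48) and 0.92 (0.518 to 1.61), so that neither library set these genes apart. Mapre3, which encodes EB3, an end-binding protein prominent in neurons, had 33 and 11 counts and a density of 106 and 116. Mapre1 exceeded Mapre3 by 2.60-fold (1.72 to 4.03) and 2.19-fold (1.03 to 4.98). This step depended on the measure. Per kilobase of whole transcript Mapre1 lay below Mapre3, at 29.1 and 46.4 CPM. With isoforms summed their mean coding densities were near level, at 219 and 212. No transcript in the table carried the name of a member's pseudogene, but fragments of unnamed copies could still be shared.

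With 1 group, the only contrast is replicate 2 against replicate 1, and an exact binomial test on the reads compares these libraries, not conditions. Its p-values cover the error of counting reads and hold no estimate of the spread between animals or preparations. Map1b was the only one of the 10 genes called, at 3369 and 4143 CPM, a log2 ratio of 0.30 on the log2(CPM + 1) scale (counting SE 0.078, adjusted exact binomial p = 0.0054). Of all 5436 genes tested, 4.14% were called, 3.99% higher and 0.147% lower in replicate 2, and among protein-coding genes alone 0.82% were called higher. The size of the Map1b difference lies inside the middle 50% of all genes (-0.39 to 0.36), and the call rests on its count. It was lost with library totals in place of TMM scaling, which lowers the median log2 ratio of all genes to -0.20 (Map1b 0.092, adjusted exact binomial p = 0.79), without the count filter (0.12, adjusted p = 1), and with a preset biological coefficient of variation of 0.2 (adjusted edgeR exact p = 1); over all alternatives its adjusted p ran from 0.00025 to 1.

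Dclk1 differed most among the 10 genes, at 447 and 286 CPM, a log2 ratio of -0.64 (counting SE 0.28) with an unadjusted exact binomial p of 0.018 and an adjusted one of 0.28. With library totals its ratio was -0.85 (adjusted exact binomial p = 0.040) and with isoforms summed it was -0.53 (adjusted p = 7.0e-05, from sums in which fragments can recur; 7.23% of all genes were called there); over the alternatives its adjusted p ran from 7.0e-05 to 1. The other 8 genes had log2 ratios between -0.34 (Map4) and 0.28 (Map1a), and none had an unadjusted exact binomial p under 0.05. Over the 10 genes 6 ratios were above 0 and the median was 0.074, beside 0.0041 for all genes tested.

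**Figure D2:**
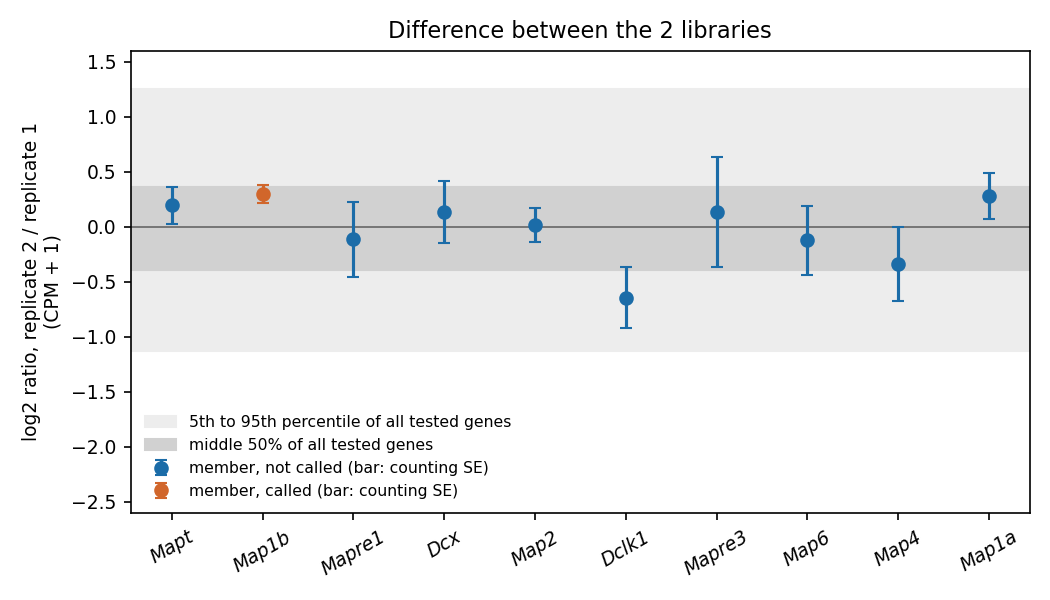
Log2 ratio of replicate 2 to replicate 1 (CPM + 1) for each of the 10 genes, with the counting standard error as bars; the grey bands hold the middle 50% and the 5th to 95th percentile of all 5436 genes tested. Map1b at 0.30 is the only gene called, and Dclk1 at -0.64 lies outside the middle band.

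The 10 genes have 93 transcripts in the table, 62 with a coding sequence and 39 of these with both untranslated regions (UTRs). Isoforms carry largely the same counts, since a fragment appears to be counted on several transcripts that contain it, so counts of isoforms are compared below by their difference. How well such counts repeat was measured on 134 isoform pairs in 114 genes of the whole table, by a rule added once the data were known. Their coding sequence and UTRs each agreed in length within 15 nucleotides, and their summed count was at least 40 in replicate 1. These near-identical pairs were matched by length alone, and their sequences were not compared. The difference in count divided by the square root of the summed count had a mean square of 0.361 in replicate 1 and 0.561 in replicate 2. Among these pairs, 95% lay within 1.09 and 1.36, and the largest were 1.63 and 2.67. Differences were uncorrelated between the libraries over the pairs (Pearson r = -0.016, pairs within a gene share fragments). If every fragment were counted on each isoform that holds it, pairs alike in sequence would have nearly equal counts. If each were assigned to 1 isoform at chance, the mean square would be near 1. The values lie between these cases, so an excess of a long isoform need not stem only from sequence the short one lacks, and the excesses and densities on extra sequence below are in doubt to that extent. Scaled differences are read against the near-identical pairs. Forms that share fewer fragments than these pairs can differ more by counting error alone, with a mean square near 1 where none are shared. For such forms a value beyond the pairs is no test of a difference.

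Map2 has 1 long form, Map2-001, with a coding sequence of 5487 nucleotides as in the high-molecular-weight MAP2A and MAP2B proteins, and 6 short forms with both UTRs and coding sequences of 1401 to 1497 nucleotides, the size of MAP2C and MAP2D. The long form had 362 and 111 counts. The short forms had 70 to 109 counts in replicate 1 and 14 to 24 in replicate 2. The long form thus held 253 to 292 counts more than the short ones in replicate 1 and 87 to 97 more in replicate 2, which are scaled differences of at least 11.7 and 7.49. This excess made up 69.9% to 80.7% of the long form's counts in replicate 1 and 78.4% to 87.4% in replicate 2, while the extra coding sequence makes up 72.7% to 74.5% of its coding length. Divided by the extra coding length, the excess was 0.80 to 1.43 times the density of the short forms in replicate 1. In replicate 2 it was 1.36 to 2.38 times. This is the density of footprints on the added stretch only if shared fragments were counted on both forms and UTRs held none. Map2-001 has a 3' UTR of 181 nucleotides and the short forms have 3021 to 3576, so UTR fragments can differ between the counts. Of the whole transcript length of Map2-001, the difference in length makes up 13.1% to 20.4%. In replicate 1 the excess was smallest over Map2-003 (109 counts) and largest over Map2-002 (70 counts); in replicate 2 it was smallest over Map2-007 and Map2-202 (24 counts each) and largest over Map2-019 (14 counts).

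In Mapt the long forms had fewer counts. Its forms with both UTRs have coding sequences of 1119, 1173 and 1293 nucleotides (Mapt-001, Mapt-006 and Mapt-007) and had 282, 275 and 273 counts in replicate 1 and 98, 80 and 73 in replicate 2. Mapt-003 and Mapt-002, with coding sequences of 2250 and 2202 nucleotides, the size of the large form known as big tau of peripheral neurons, had 243 and 217 counts in replicate 1 and 67 and 60 in replicate 2. The longest form therefore held 30 to 39 counts fewer than the shorter ones in replicate 1 and 6 to 31 fewer in replicate 2, in spite of 957 to 1131 nucleotides more coding sequence. Against Mapt-007, whose transcript of 1362 nucleotides is nearly all coding, the scaled difference was -1.32 in replicate 1 and -0.51 in replicate 2. No excess of counts on the longest form was detectable in either library. The long forms have no annotated UTR, so fragments in UTRs, which are counted on the other forms, are missing from them by construction. Taking Mapt-003 as the representative lowered Mapt below Map1b in coding density.

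Short partial transcripts of Mapt differed in level. Mapt-012, a partial coding transcript of 418 nucleotides, had 93 and 25 counts, and Mapt-004, a transcript of 464 nucleotides without a coding sequence, had 98 and 28. Per kilobase of transcript these were 222 counts for Mapt-012 and 211 for Mapt-004 in replicate 1, near the 200.4 of Mapt-007 and above the 108 of Mapt-003, while the lowest of the partial transcripts, Mapt-010, had 65.0. The isoforms Mapt-001 and Mapt-007 differed by 9 counts in replicate 1 and by 25 in replicate 2 (scaled differences 0.38 and 1.91), the latter beyond 95% of the near-identical pairs and inside their largest value.

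**Figure D3:**
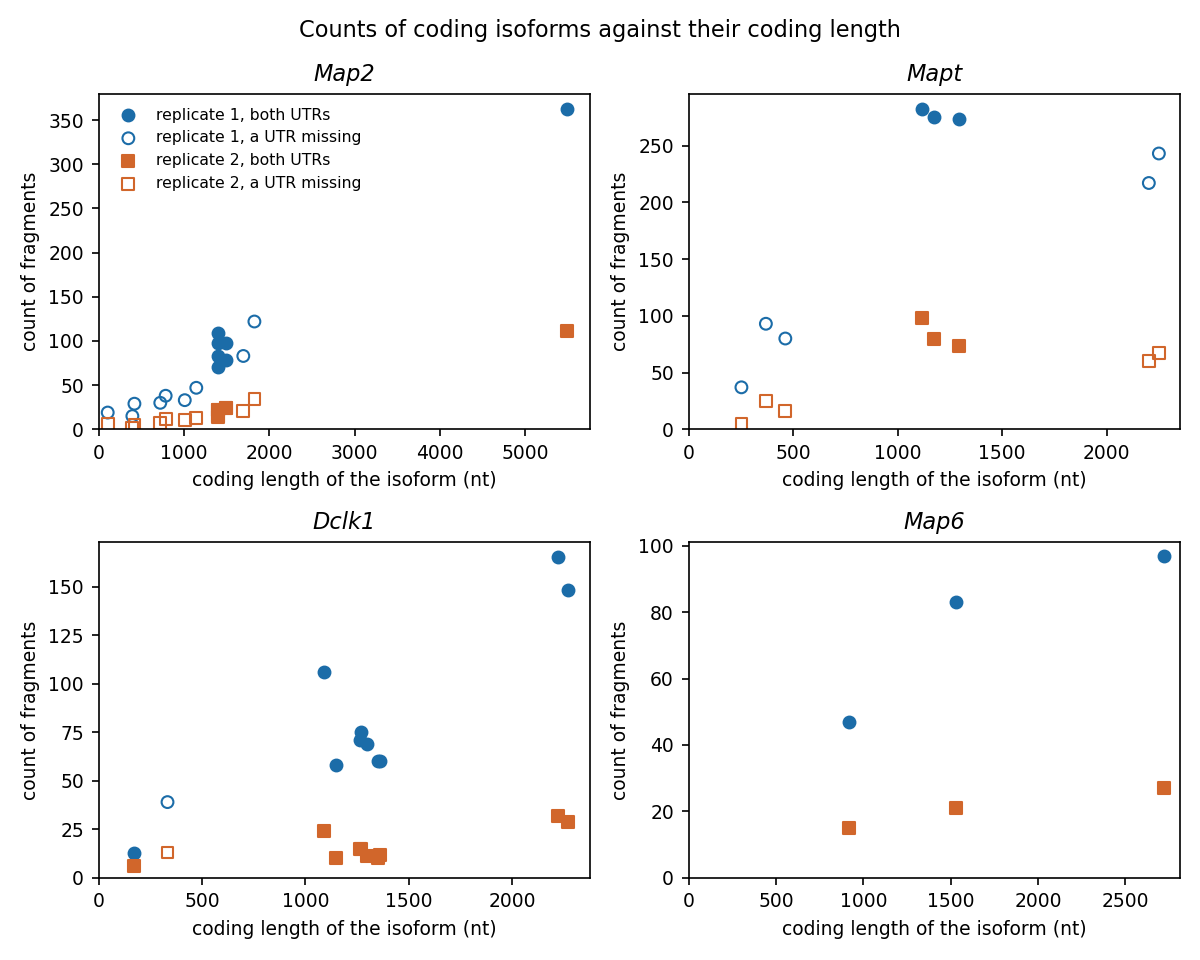
Counts of every coding isoform of Map2, Mapt, Dclk1 and Map6 against its coding length in nucleotides, with replicate 1 as circles and replicate 2 as squares; open symbols are isoforms with a UTR missing in the annotation. Map2-001 stands far above its short forms at 362 and 111 counts, while the Mapt forms of 2202 and 2250 nucleotides lie below those of 1119 to 1293.

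Dclk1 has forms that hold the doublecortin part, the kinase part or both. The full forms Dclk1-001 and Dclk1-201 (coding sequences of 2220 and 2271 nucleotides) had 165 and 148 counts in replicate 1 and 32 and 29 in replicate 2, a scaled difference of 0.96 and 0.38 in size. Dclk1-002, with a coding sequence of 1092 nucleotides, the size of the doublecortin-like protein that lacks the kinase, had 106 and 24 counts, 64.2% and 75% of those of Dclk1-001 on less coding length. The 5 forms with coding sequences of 1266 to 1359 nucleotides, the size of forms with the kinase alone, had 60 to 75 counts in replicate 1 and 10 to 15 in replicate 2. Of these Dclk1-202 had 75 and 15. Per kilobase of coding sequence Dclk1-002 exceeded Dclk1-202 by 1.64-fold in replicate 1 and 1.86-fold in replicate 2. The scaled differences in count were 2.30 and 1.44, beyond 95% of near-identical pairs in each library. If these 2 forms share few fragments, counting error alone has a mean square near 1, which the 1.44 of replicate 2 does not clearly exceed. The excess of the full form Dclk1-201 over these 5 forms was 49.3% to 59.5% of its count in replicate 1 and 48.3% to 65.5% in replicate 2, for 40.2% to 44.3% of its coding length. Which part of the protein each form encodes is inferred from its coding length, since the table holds no sequence.

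Map6-001, whose coding part spans 2721 nucleotides, had 97 and 27 counts, against 83 and 21 for Map6-003 (1530 nucleotides) and 47 and 15 for Map6-201 (921 nucleotides). The excess over Map6-003 was 14.4% of the count in replicate 1 (Wilson, 8.80 to 22.8 at 95%) and 22.2% in replicate 2 (10.6 to 40.8), for 43.8% of the coding length. These intervals leave out the error of the shorter form's count and cannot fall below 0, so they do not test for an excess. The excess over Map6-003, a scaled difference of 1.04 and 0.87, was within the spread of near-identical pairs. By contrast, the excess over Map6-201 (50 and 12 counts, 4.17 and 1.85) lay beyond 95% of them in each library. Map4-002 and Map4-001 (3375 and 3378 nucleotides) had 96 and 94 counts in replicate 1 and 23 and 22 in replicate 2. Map4-005, annotated with 4322 coding nucleotides and no UTR, had 26 and 4, so the longest coding sequence of Map4 was not the one with the counts. Map1a-001 and Map1a-002 differed by 714 nucleotides of coding sequence and had 179 and 181 counts in replicate 1 and 66 and 61 in replicate 2, a difference within counting error. The 4 coding forms of Dcx, of 1083 to 1101 nucleotides, had 82 to 108 counts in replicate 1 and 25 to 34 in replicate 2.

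Over the whole table, 279 genes had a longest and a shortest coding isoform, each with both UTRs, at least 300 nucleotides apart in coding length and at least 20 counts on the shorter. The excess count per extra coding length was a median of 0.64 times the density of the short isoform (middle 50% 0.077 to 1.16). It was below 0, with fewer counts on the long isoform, in 15.8% of genes. The UTRs of the isoforms can differ here too. Map2 lay at 1.33, above 79.2% of these genes, computed with Map2-019 as its shortest form. Map6 lay at 0.51, Map4 at 0.17 (with Map4-008, of 300 coding nucleotides, as the short form) and Map1a at 0.14, on the lower side of the median. Mapt had no such pair because its long forms lack UTRs. The shortest form of Dclk1 had too few counts.

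**Figure D4:**
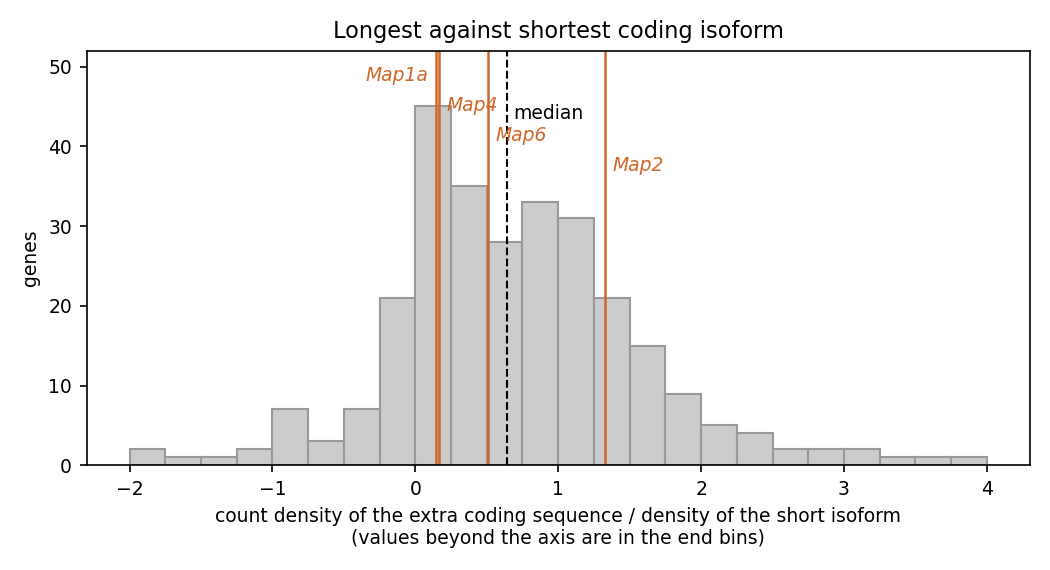
Histogram over 279 genes of the excess count of the longest isoform per extra coding length, divided by the density of the shortest isoform, both libraries summed. Coloured lines mark Map1a, Map4, Map6 and Map2, and the dashed line the median of 0.64; Map2 at 1.33 is the only one of the 4 above it.

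Isoforms with long 3' UTRs were compared in Dclk1 and Dcx. Dclk1-003 has a coding sequence of 171 nucleotides and a 3' UTR of 4689, and had 13 and 6 counts, against 165 and 32 for Dclk1-001. Dcx-001 carries 5940 nucleotides more of 3' UTR than Dcx-003 at the same coding length, and differed from it by 7 counts in replicate 1 and by -3 in replicate 2. Dcx-006, with a 3' UTR of 78 nucleotides and a coding sequence of 1083, had 82 counts against the 108 of Dcx-001 in replicate 1, a scaled difference of 1.89 beyond every near-identical pair, and 28 against 25 in replicate 2. Dividing by the whole transcript instead of the coding sequence moved Mapre1, whose 3' UTR of 6380 nucleotides follows a coding sequence of 807, from the third place to the last, at 29.1 CPM per kilobase of transcript. Some short forms of Map2 differ mainly in the 5' UTR. Map2-003 and Map2-002 share a coding length of 1404 and a 3' UTR of 3576 nucleotides and differ in 5' UTR length, at 460 and 145. Map2-003 had 109 counts and Map2-002 had 70 in replicate 1, a scaled difference of 2.92 that is larger than in any near-identical pair, and 22 and 15 in replicate 2, a scaled difference of 1.15 that is not. Map2-201, with the same coding length, a 5' UTR of 217 and a 3' UTR of 3574 nucleotides, had 98 and 22 counts. These were within 11 and 0 counts of Map2-003 (scaled differences 0.76 and 0). From Map2-002 they differed by scaled differences of 2.16 and 1.15. Whether 5' UTR length bears on these counts was not tested.

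Other regulators of microtubules were taken from a list of 68 names, of which 67 were found and 43 passed the count filter. None of the 43 was called different between the libraries by the exact binomial test, and the list's median log2 ratio was 0.057. By the same test 2 (Clip2 and Nav2) had an unadjusted p under 0.05, beside 9.60% of all genes and 5.62% of protein-coding genes tested. No gene of the list was called by the edgeR exact test with the preset coefficient of variation either, and with isoforms summed 4 of 52 were, beside 7.23% of all genes at that setting. By coding density the highest was Map1lc3a, which encodes a small protein first found with the MAP1 chains and known from autophagy, with 70 and 16 counts and 454 ± 90.5 CPM per kilobase (SD, n = 2). Cdk5r1, the neuronal activator of the kinase Cdk5, which phosphorylates tau and doublecortin, had 124 and 37 counts and a density of 361 ± 4.31. Clip3, a member of the CAP-Gly linker family, had 182 and 64 counts and a density of 324 ± 33.7. Pafah1b1 (110 and 40 counts) passed the filter but has no density, since its transcript with most counts has no coding sequence. Of the other genes that passed, 7 lay above the median of the 10 described genes and none above Mapt. Their median density was 37.2, against 172 for the 10.

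The protein-coding genes closest to Mapt in coding density over the 2 libraries, by Euclidean distance on the log2 scale, were Sparcl1 (distance 0.029), Hist1h3f (0.040) and Pfn2 (0.043), at 739 ± 60.3, 745 ± 83.5 and 737 ± 91.6 CPM per kilobase (SD, n = 2). Sparcl1 encodes a secreted matrix protein of glia, and Pfn2 a neuronal actin-binding profilin. Hist1h3f is a histone gene with near-identical copies, so its count is uncertain. With 2 libraries this likeness says only that levels were alike.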

How the data were processed

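Fragment counts per transcript were deposited by the authors as whole numbers, not normalised, in 1 table of 109463 transcripts, with transcript, coding and UTR lengths; the submitters' processing notes name Trimmomatic 0.36, Bowtie2 2.2.6, SAMtools and the build GRCm38.p4. How fragments were counted, which annotation release was used and whether ribosomal RNA was removed is not given in the sources used here. Columns were matched to replicates by number. The table totals were 729027 and 225075, above the gene totals, which keep 1 isoform a gene.

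The 10 genes, the lists and the tests were chosen with earlier results of these data known. The gene symbol is the transcript name without its 3-digit suffix, and a gene is its transcript with the highest summed count, a choice that favours upward noise in genes with many isoforms. CPM used effective library sizes from edgeR 4.0.16 (TMM factors 1.07 and 0.931, R 4.3.3), after genes whose mean count was under 10 were dropped. Every such gene was tested with a 2-sided exact binomial test (scipy 1.17.1) of replicate 2 against replicate 1, with Benjamini-Hochberg adjustment over all 5436 genes at 0.05; the ratio has a pseudocount of 1 CPM, which understates changes of low genes. The test was tested on simulated data. Intervals (95% Wilson, exact binomial or exact Poisson) cover the counting error of reads only. Amplified reads lacking molecular identifiers cannot be taken as independent molecules, so the intervals can be too narrow. Named genes were the 10 members, the called and the 3 densest other regulators, and the 3 genes nearest in level to the densest member. Clip2, Nav2, Pafah1b1 and single isoforms were named after their values were seen. Alternatives were library totals, DESeq2 1.42.0 size factors, other count filters, isoforms summed, the longest coding isoform, coding genes alone, a preset coefficient of variation and each library alone. No genome or protein sequence was used here.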

Additional observations from a re-analysis of the deposited data

How the results depend on the processing

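Where a value moved, the cause was not tested unless the setting's own construction gives it. No paired analysis was possible because a single group was sequenced. No test between libraries can be had with either replicate left out. The 225 genes called became 75 of 764 with a mean of at least 50. With isoforms summed they became 605 of 8366 (7.23%, fragments can recur in sums). Among coding genes alone they became 22 of 4392 (0.501%), and with the preset coefficient of variation 131 of 5436 (2.41%). In that order, 72, 223, 22 and 131 of these were among the 225. The 1 member called (Map1b) became 0 without the count filter, where 1.29% of all genes were called. With isoforms summed 2 of 10 members were called (Map1b and Dclk1), and with the preset coefficient of variation 0 were. With library totals the number was again 1, but Dclk1 in place of Map1b, beside 3.66% of all genes. The 0 other regulators called became 4 of 52 with isoforms summed. The family's share of 0.754% became 0.989% with isoforms summed, 0.728% on the longest coding isoform and 0.978% of coding counts alone, and ran from 0.739% to 0.769% with each replicate left out.

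Of 79 alternative log2 ratios of the members, 14 changed sign, all of them for genes not called. With library totals these were Map2 (-0.19), Mapt (-0.011), Dcx (-0.071) and Mapre3 (-0.070), without the filter Map2 (-0.16), Dcx (-0.040) and Mapre3 (-0.040), and with a mean of at least 50 Map2 (-0.059). With isoforms summed they were Map2 (-0.16), Mapt (-0.014), Map6 (0.10) and Dcx (-0.073), and on the longest coding isoform Mapt (-0.13) and Dcx (-0.39). Library totals and the missing filter shift all ratios, to medians of -0.20 and -0.25.

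Of 70 alternative densities, 47 moved by less than the SD between the libraries. For each library taken alone this was fixed in advance, because its value lies within the SD of the mean by construction. Mapt was the densest gene as reported, with isoforms summed and in each library alone, and Map1b per whole transcript and on the longest coding isoform. With isoforms summed Map1b, which has a single transcript, fell to the fifth place.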

Other observations

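Transcripts of these genes that are annotated without a coding sequence numbered 31 in 9 genes, and most carried counts. The retained-intron transcripts Dcx-004 and Dcx-005 had 93 and 87 counts in replicate 1 and 18 and 25 in replicate 2, beside 82 to 108 and 25 to 34 on the coding forms. Map6-002, a retained-intron transcript of 4920 nucleotides, had 84 and 34 counts against 97 and 27 for the coding Map6-001. In replicate 2 it was thus the highest of the Map6 isoforms, with a scaled difference of -0.90 from Map6-001 that is inside 95% of near-identical pairs. Map6-004 and Map1a-004, also without a coding sequence, had 0 and 0 and 1 and 0 counts. Whether such counts come from exons shared with coding forms was not tested.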
